A study of Oryza sativa with 12 samples.

Results

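Among the 55986 genes measured by RNA-Seq in rice seedlings, 148 stood highest in unheated *ntl3-1* seedlings by a set margin, with all 3 libraries of that group above every other library. Rows of the expression table were taken when the lowest of the 3 *ntl3-1* libraries at 29 ºC was at least 2 FPKM and more than 1.3 times the highest of the other 9 libraries. FPKM counts the sequenced fragments of a gene after correction for transcript length and for the mapped reads in the library. The rule would have kept the 300 highest if more had passed, and 148 did. Members were thus selected on their measured FPKM. So the peak of these genes at 29 ºC, their excess over WT at 29 ºC and their lower level in heated *ntl3-1* were given by the choice and are described below without a test. The response of WT to heat and the difference between *ntl3-1* and WT at 45 ºC were not set by the rule and were tested. Both groups of each of these comparisons were held under the same ceiling. Neither is independent of the rule, which took genes that fall with heat in *ntl3-1* and exceed WT at 29 ºC.

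WT was the cultivar Nipponbare, and *ntl3-1* was a line in which OsNTL3 had been edited with CRISPR-Cas9 and was predicted to encode a truncated protein. Both were seedlings at 8 days after germination, kept at 29 ºC or moved to 45 ºC for 3 h, with 3 libraries of whole seedlings in each of the 4 groups. In such libraries a different share of cells of one type and a different amount of RNA per cell cannot be told apart. Only 1 edited line was sequenced, so the edit and any other difference between this line and WT cannot be told apart. Seedlings were harvested for each replicate per the study's methods, and no source used here says whether these were grown separately, so p-values measure only the spread between these harvests.

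NAC proteins bind DNA and regulate development and stress responses of plants. A few, OsNTL3 among them, carry a membrane anchor and enter the nucleus once they are released from it. In heated plants, genes for chaperones and other stress proteins are transcribed strongly while the transcripts of many genes of growth and metabolism decline.

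Between replicates, r was 0.967 to 0.980. OsNTL3 itself was at 18.3 to 21.8 FPKM in WT at 29 ºC, 57.5 to 87.5 FPKM in WT at 45 ºC, 10.3 to 14.1 FPKM in *ntl3-1* at 29 ºC and 28.4 to 34.1 FPKM in *ntl3-1* at 45 ºC, so its transcript was lower in *ntl3-1* but not absent, and the edit in it was not examined. FPKM summed to 610880 to 698971 per library at 29 ºC and to 1153023 to 1369236 at 45 ºC. The absolute depth is unknown. In the lowest values, 1 read was worth 1.68 to 2.04 times as much FPKM in the libraries at 45 ºC as in the first WT library at 29 ºC, against 0.877 to 1.08 times in the others at 29 ºC, so a given FPKM rested on fewer reads after heat.

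The set spanned levels from 2.18 to 625 FPKM as means of *ntl3-1* at 29 ºC, with a median of 12.04 FPKM. Of its 148 genes, 12 had a mean of at least 100 FPKM, 53 of at least 20 FPKM and 34 of less than 5 FPKM. Group means in WT at 29 ºC ran from 0 to 324 FPKM with a median of 5.29 FPKM, and the ratio of means between the genotypes at 29 ºC had a median of 2.19. That ratio was at least 2 in 90 genes and at least 5 in 20 genes. Means in *ntl3-1* at 45 ºC had a median of 3.005 FPKM and those in WT at 45 ºC a median of 2.15 FPKM. Summed over the 148 genes, the level was 5046 to 5363 FPKM per library in *ntl3-1* at 29 ºC, 2022 to 2456 FPKM in WT at 29 ºC, 1354 to 1507 FPKM in *ntl3-1* at 45 ºC and 892 to 1010 FPKM in WT at 45 ºC. The same rule with another group in the high place found 63 genes for WT at 29 ºC, 45 genes for WT at 45 ºC and 148 genes for *ntl3-1* at 45 ºC.

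**Figure D1:**
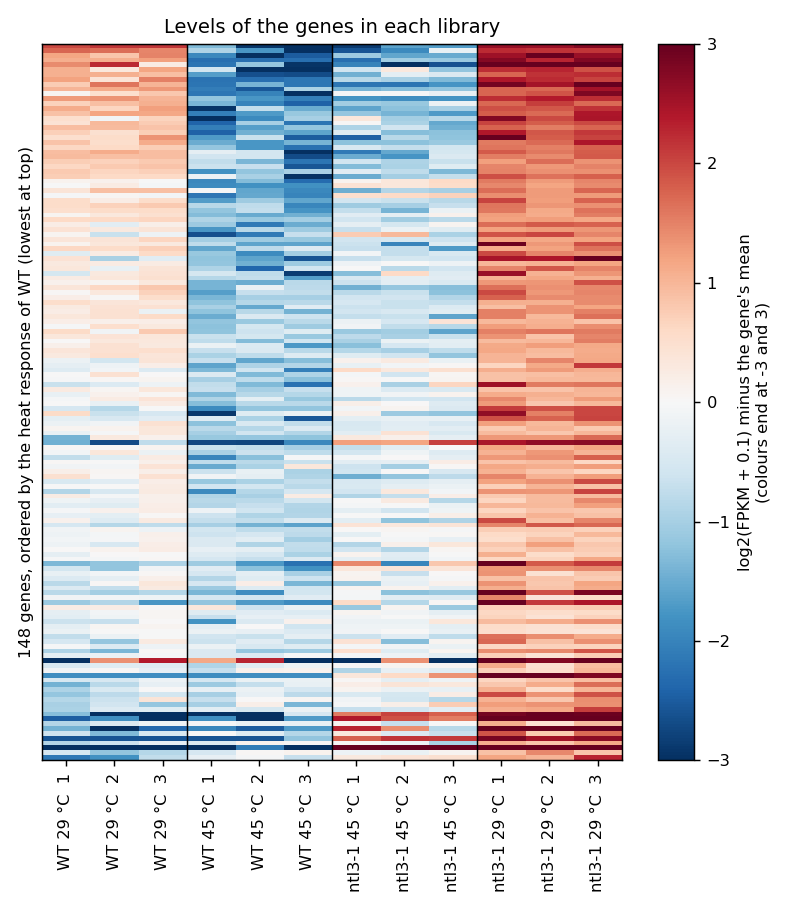
Level of each of the 148 genes (1 line per gene, ordered by the heat response of WT) in each of the 12 libraries (columns), as log2(FPKM + 0.1) minus the mean of the gene over the libraries, with colours ending at -3 and 3. The 3 columns of *ntl3-1* at 29 ºC are red throughout by the rule, WT at 45 ºC is the bluest group in the upper part, and a few lines near the bottom are blue in all 6 WT columns.

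The next highest group was mostly the unheated WT. The highest of the other 9 libraries was a WT library at 29 ºC in 95 genes, an *ntl3-1* library at 45 ºC in 46 genes and a WT library at 45 ºC in 7 genes. All 148 genes passed the filter for testing, an FPKM above 0 in at least 3 libraries, and all would have passed it without the *ntl3-1* libraries at 29 ºC. In 135 genes the value was above 0 in all 12 libraries.

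The most abundant gene, LOC_Os09g36930, was at 573, 733 and 567 FPKM in *ntl3-1* at 29 ºC, at 284, 324 and 365 FPKM in WT at 29 ºC, at 84.4, 78.95 and 154 FPKM in *ntl3-1* at 45 ºC and at 67.6, 43.9 and 32.2 FPKM in WT at 45 ºC. The second, LOC_Os02g14440, was at 429.9, 575 and 439.6 FPKM in *ntl3-1* at 29 ºC, at 166, 131 and 207 FPKM in WT at 29 ºC, at 34.6, 24.6 and 25.7 FPKM in *ntl3-1* at 45 ºC and at 19.1, 8.998 and 12.9 FPKM in WT at 45 ºC. In both genes each *ntl3-1* library at 29 ºC was above each WT library at 29 ºC, and the heated libraries of either genotype were far beneath the unheated ones. Relative to WT at 29 ºC, the mean of *ntl3-1* was 1.93 times as high for LOC_Os09g36930 and 2.86 times as high for LOC_Os02g14440. Neither locus has a product name in the sources used here.

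Further abundant members differed in where the heated libraries stood. LOC_Os03g01300 was at 296, 256 and 286 FPKM in *ntl3-1* at 29 ºC, at 98.4, 141 and 123 FPKM in WT at 29 ºC, at 74.04, 37.7 and 25.04 FPKM in *ntl3-1* at 45 ºC and at 13.7, 35.995 and 15.8 FPKM in WT at 45 ºC. LOC_Os02g53180 was at 257, 294 and 271 FPKM in *ntl3-1* at 29 ºC, at 159.6, 169 and 184 FPKM in WT at 29 ºC, at 106, 85.9 and 165 FPKM in *ntl3-1* at 45 ºC and at 135, 131 and 93.5 FPKM in WT at 45 ºC. The heated *ntl3-1* libraries of LOC_Os02g53180 overlapped those of heated WT, and the log2FC for heat in WT was -0.53 (SE 0.22, adjusted p = 0.0649 in limma), which did not pass the test. LOC_Os02g37290 was at 124, 153 and 226 FPKM in *ntl3-1* at 29 ºC, at 26.7, 40.7 and 59.8 FPKM in WT at 29 ºC, at 81.1, 92.4 and 88.7 FPKM in *ntl3-1* at 45 ºC and at 33.2, 43.5 and 60.7 FPKM in WT at 45 ºC. Here the WT libraries overlapped between the temperatures and heated *ntl3-1* lay above all 6 WT libraries. Its log2FC for *ntl3-1* against WT at 45 ºC was 0.97 (SE 0.31, adjusted p = 0.185 in limma), which did not pass the test.

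In WT, which was compared at 45 ºC and 29 ºC to ask how these genes respond to heat where OsNTL3 is intact, 70 of the 148 genes were down-regulated and 1 was up-regulated. Down-regulation was called where limma on log2(FPKM + 0.1) gave an adjusted p up to 0.05, over all 31681 genes tested, and log2FC was -1 or lower. The 70 genes are 47.3% of the set, against 11.8% of all genes tested and 11.8% of those with at least 2 FPKM in every unheated *ntl3-1* library. The 1 gene is 0.676%, against 13.2% and 13.8%. The median log2FC was -0.97 in the set and -0.04 over all genes tested, and the value was below 0 in 130 members. The 3 heated WT libraries lay under the 3 unheated ones in 100 members, or 67.6%, against 28.3% of all genes tested, and above them in 1 member, against 26.7%. In every one of the 70 genes the groups did not overlap. Because every member also falls with heat in *ntl3-1* by the rule, this count shows how the same genes behave in WT and is no separate evidence about the set.

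**Figure D2:**
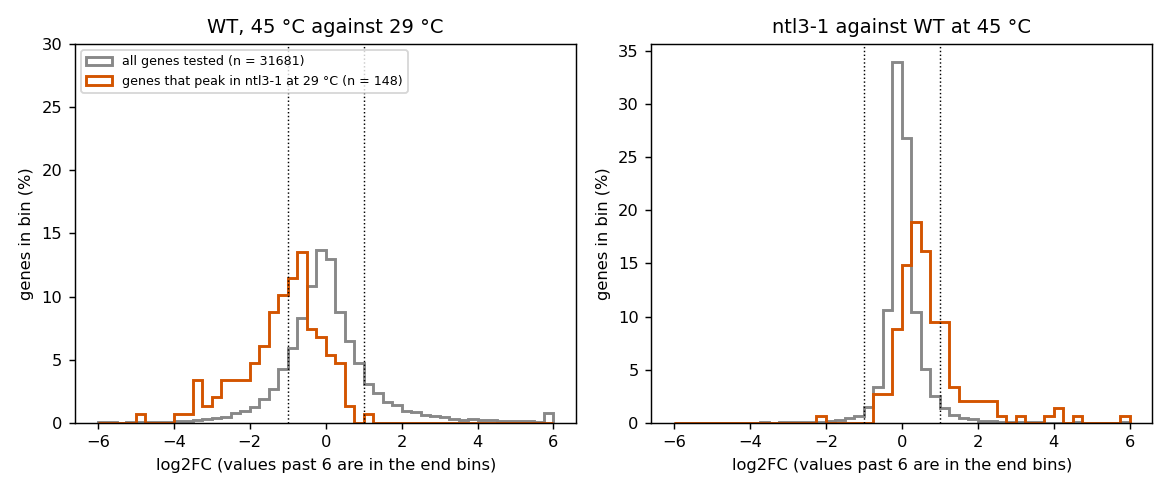
Share of genes (%) in bins of log2FC for WT at 45 ºC against 29 ºC (left) and for *ntl3-1* against WT at 45 ºC (right), for all 31681 genes tested (grey) and the 148 genes of the set (orange). Dotted lines mark a log2FC of -1 and 1; the set lies to the left of all genes in the left panel (median -0.97 against -0.04) and to the right in the right panel (median 0.52 against -0.01).

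Of the 15 members with the highest level in *ntl3-1* at 29 ºC, 8 were down-regulated by heat in WT. That is 53.3%, near the 47.3% of the whole set, against 11.8% of all genes tested. The log2FC was -2.81 (SE 0.29, adjusted p = 2.16e-05) for LOC_Os09g36930, -3.65 (SE 0.26, adjusted p = 1.53e-06) for LOC_Os02g14440 and -2.59 (SE 0.41, adjusted p = 0.00038) for LOC_Os03g01300. LOC_Os02g37190 was at 202, 226 and 203 FPKM in *ntl3-1* at 29 ºC, at 105, 112 and 88.03 FPKM in WT at 29 ºC, at 12.5, 11.8 and 12.5 FPKM in *ntl3-1* at 45 ºC and at 19.1, 13.03 and 10.5 FPKM in WT at 45 ºC, a log2FC in WT of -2.86 (SE 0.18, adjusted p = 5.3e-07). Its heated libraries overlapped between the genotypes, so the excess of *ntl3-1* seen at 29 ºC was not seen at 45 ºC. Smaller responses were those of LOC_Os08g37300 (log2FC -2.05, SE 0.43, adjusted p = 0.00262), LOC_Os10g26940 (log2FC -1.46, SE 0.40, adjusted p = 0.0118), LOC_Os07g03458 (log2FC -1.15, SE 0.25, adjusted p = 0.00344) and LOC_Os07g28480 (log2FC -1.43, SE 0.20, adjusted p = 0.000158). For LOC_Os07g03458 the log2FC came under 1 in size without WT library 3 at 29 ºC (-0.96) or without WT library 1 at 45 ºC (-0.91). LOC_Os10g26940 was at 113, 149 and 114 FPKM in *ntl3-1* at 29 ºC, at 52.2, 34.8 and 53.3 FPKM in WT at 29 ºC, at 40.5, 23.5 and 27.3 FPKM in *ntl3-1* at 45 ºC and at 21.4, 7.77 and 27.5 FPKM in WT at 45 ºC, with heated libraries that overlapped between the genotypes. Its call was lost with only the 2 WT groups in the fit (adjusted p = 0.0621) and without WT library 2 at 45 ºC (log2FC -0.92). LOC_Os08g37300 was at 83.4, 74.3 and 84.3 FPKM in *ntl3-1* at 29 ºC, at 46.2, 51.9 and 54.3 FPKM in WT at 29 ºC, at 12.2, 15.6 and 23.3 FPKM in *ntl3-1* at 45 ºC and at 19.3, 18.6 and 5.001 FPKM in WT at 45 ºC, and there too the heated libraries overlapped. LOC_Os01g66000 was at 82.1, 95.96 and 92.8 FPKM in *ntl3-1* at 29 ºC, at 50.9, 57.3 and 61.2 FPKM in WT at 29 ºC, at 42.9, 35.4 and 48.3 FPKM in *ntl3-1* at 45 ºC and at 47.3, 34.9 and 28.1 FPKM in WT at 45 ºC, and its log2FC for heat in WT of -0.65 (SE 0.18, adjusted p = 0.0113) was under the fold threshold.

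Of the 5 members with the largest falls in WT, 4 were between 0 and 2.3997 FPKM in heated WT, whereas LOC_Os02g14440 stayed between 8.998 and 19.1 FPKM. LOC_Os07g42070 was at 8.69, 8.53 and 9.62 FPKM in *ntl3-1* at 29 ºC, at 5.501, 6.22 and 6.25 FPKM in WT at 29 ºC, at 0.0943, 0.3704 and 0.345 FPKM in *ntl3-1* at 45 ºC and at 0.474, 0.0886 and 0 FPKM in WT at 45 ºC. LOC_Os02g50000 was at 12.9, 12.2 and 12.1 FPKM in *ntl3-1* at 29 ºC, at 9.06, 8.64 and 7.44 FPKM in WT at 29 ºC, at 0.353, 0.631 and 2.26 FPKM in *ntl3-1* at 45 ºC and at 1.35, 0.712 and 0.0653 FPKM in WT at 45 ºC. LOC_Os10g20830 was at 3.14, 2.27 and 3.19 FPKM in *ntl3-1* at 29 ºC, at 0.918, 0.9299 and 1.04 FPKM in WT at 29 ºC, at 0, 0.134 and 0.124 FPKM in *ntl3-1* at 45 ºC and at 0 FPKM in all 3 libraries of WT at 45 ºC. In these 3 genes each WT library at 45 ºC was under each at 29 ºC, and the heated libraries overlapped between the genotypes. The fitted log2FC in WT was -4.78 (SE 0.54, adjusted p = 4.05e-05) for LOC_Os07g42070 and -3.87 (SE 0.74, adjusted p = 0.00139) for LOC_Os02g50000, and these sizes depend on the constant of 0.1 FPKM because values come near 0. LOC_Os10g20830 was listed at 0 in all 3 heated WT libraries, so no fold is given for it. LOC_Os02g13660 was at 73.2, 60.9 and 47.8 FPKM in *ntl3-1* at 29 ºC, at 14.7, 25.99 and 6.44 FPKM in WT at 29 ºC, at 1.28, 0.471 and 0.806 FPKM in *ntl3-1* at 45 ºC and at 1.12, 2.3997 and 0.625 FPKM in WT at 45 ºC (log2FC in WT -3.39, SE 0.55, adjusted p = 0.000481).

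A single member was up-regulated in WT. LOC_Os06g03810 was at 4.06, 3.59 and 8.75 FPKM in *ntl3-1* at 29 ºC, at 0.316, 0.414 and 0.995 FPKM in WT at 29 ºC, at 2.15, 2.31 and 2.42 FPKM in *ntl3-1* at 45 ºC and at 1.44, 1.67 and 1.04 FPKM in WT at 45 ºC. All heated WT libraries were above all unheated ones (log2FC 1.24, SE 0.40, adjusted p = 0.0251), while in *ntl3-1* the order of temperatures was the opposite, as the rule requires. This call was lost with a constant of 1 FPKM, with only the 2 groups in the fit and without WT library 1 or 2 at either temperature, with adjusted p from 0.0617 to 0.0949.

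For the other 77 members neither call was made in WT, although without the fold threshold 94 members in all were lower and 2 were higher (63.5% and 1.35% of the set, against 24.3% and 24.3% of all genes tested). LOC_Os03g05620 was at 109, 108 and 129 FPKM in *ntl3-1* at 29 ºC, at 44.01, 42.5 and 62.3 FPKM in WT at 29 ºC, at 52.5, 54.5 and 47.5 FPKM in *ntl3-1* at 45 ºC and at 29.6, 33.9 and 29.9 FPKM in WT at 45 ºC. Its log2FC in WT was -0.65 (SE 0.14, adjusted p = 0.00304), short of the fold threshold, and heated *ntl3-1* was above heated WT by less than that threshold too (log2FC 0.73, adjusted p = 0.031). LOC_Os01g47070 was at 86.2, 71.2 and 88.2 FPKM in *ntl3-1* at 29 ºC, at 21.7, 26.2 and 34.01 FPKM in WT at 29 ºC, at 41.3, 36.7 and 20.7 FPKM in *ntl3-1* at 45 ºC and at 30.1, 43.5 and 41.1 FPKM in WT at 45 ºC. Unlike most members, its heated WT libraries were mostly above the unheated ones, with a log2FC of 0.49 (SE 0.26, adjusted p = 0.143) that did not pass the test.

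At 45 ºC, *ntl3-1* was compared with WT to see whether the excess of these genes persists under heat. Here 17 of the 148 genes were higher in *ntl3-1* and 0 were lower, by limma under the same thresholds. The 17 genes are 11.5% of the set, against 0.877% of all genes tested and 0.717% of those with at least 2 FPKM in every unheated *ntl3-1* library, and for lower levels these shares were 0.256% and 0.165%. Without the fold threshold 23 members were higher (15.5%, against 1.18%) and 0 were lower (against 0.432%). At an unadjusted p under 0.05, 74 members or 50% were higher, against 7.6% of all genes tested, and 1 member (0.676%, against 6.43%) was lower, LOC_Os03g20210 (log2FC -0.73, adjusted p = 0.268, named after its values were seen). In 65 members, or 43.9%, every heated *ntl3-1* library was above every heated WT library, against 7.24% of all genes tested, and in 0 members every one was below, against 6.71%. The median log2FC was 0.52 in the set and -0.01 over all genes tested, and the value was above 0 in 126 members. The count of 17 fell to 11 with a constant of 1 FPKM and to 6 when only the 2 groups at 45 ºC were fitted. In 13 of the 17 genes the mean of heated WT was under 1 FPKM, where values are low and the constant of 0.1 FPKM weighs on the log2FC. Every member also exceeds WT in unheated seedlings of the same lines by the rule, so these shares are partly given by the choice. The fit over all groups also took its spread in part from the unheated *ntl3-1* libraries, on which members were selected. The counts thus show how the same genes stood at 45 ºC and are no separate evidence about the set.

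The 17 genes divided by what heat did in WT. In 10 of them the level also fell in WT. In the other 7 no call was made for heat in WT. Of the remaining 131 members, 60 were down-regulated in WT and had no call at 45 ºC, 70 had neither call and 1 was the gene up-regulated in WT.

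Several members were nearly absent from WT at either temperature. In 10 genes all 6 WT libraries were under 1 FPKM, and 5 of these were higher in *ntl3-1* at 45 ºC. That is 50%, against 11.5% of the set and 0.877% of all genes tested. The share among all tested genes under 1 FPKM in WT was not worked out. These 10 were picked by low values in heated WT too, so the count is no result about them. LOC_Os02g41961 was at 139, 152 and 138 FPKM in *ntl3-1* at 29 ºC, at 0.135, 0 and 0 FPKM in WT at 29 ºC, at 86.3, 66.8 and 94.96 FPKM in *ntl3-1* at 45 ºC and at 0, 0.8996 and 0 FPKM in WT at 45 ºC. It was thus listed at 0 in 4 of 6 WT libraries and at 66.8 FPKM or more in every *ntl3-1* library (log2FC at 45 ºC 8.57, SE 0.74, adjusted p = 0.000131, and 0.0511 with only the 2 heated groups in the fit). LOC_Os01g64949 was at 25.8, 29.5 and 25.4 FPKM in *ntl3-1* at 29 ºC, at 0.293, 0.502 and 0 FPKM in WT at 29 ºC, at 11.4, 8.03 and 6.18 FPKM in *ntl3-1* at 45 ºC and at 0.509, 0 and 0.568 FPKM in WT at 45 ºC. LOC_Os12g04870 was at 6.63, 9.45 and 7.01 FPKM in *ntl3-1* at 29 ºC, at 0.282, 0 and 0 FPKM in WT at 29 ºC, at 2.63, 3.63 and 3.09 FPKM in *ntl3-1* at 45 ºC and at 0, 0 and 0.548 FPKM in WT at 45 ºC. For both of these genes, too, the lowest *ntl3-1* library was several times the highest WT library. Their log2FC at 45 ºC was 4.60 (SE 0.76, adjusted p = 0.0128) and 4.10 (SE 0.71, adjusted p = 0.0169), and both calls were lost with only the 2 heated groups or a constant of 0.01 FPKM. The call of LOC_Os01g64949 was also lost without *ntl3-1* library 1 at 45 ºC (adjusted p = 0.0522). That of LOC_Os12g04870 was lost without WT library 1 or 2 or *ntl3-1* library 2 or 3 at 45 ºC (adjusted p from 0.0552 to 0.0615). Heated WT was near 0 in these genes, so the sizes depend on the constant. Over the alternative fits the log2FC ran from 6.06 to 10.83 for LOC_Os02g41961. It ran from 2.80 to 5.84 for LOC_Os01g64949 and from 1.82 to 6.34 for LOC_Os12g04870.

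LOC_Os12g13445 and LOC_Os12g44280 were the members with a mean of 0 in WT at 29 ºC. LOC_Os12g13445 was at 4.26, 3.35 and 3.85 FPKM in *ntl3-1* at 29 ºC, at 0 FPKM in all 3 libraries of WT at 29 ºC, at 1.97, 2.57 and 2.47 FPKM in *ntl3-1* at 45 ºC and at 0, 0 and 0.163 FPKM in WT at 45 ºC. LOC_Os12g44280 was at 3.17, 2.796 and 2.46 FPKM in *ntl3-1* at 29 ºC, at 0 FPKM in all 3 libraries of WT at 29 ºC, at 0.367, 0.45003 and 0.839 FPKM in *ntl3-1* at 45 ºC and at 0 FPKM in all 3 libraries of WT at 45 ºC. Heated *ntl3-1* was between unheated *ntl3-1* and WT in both, with no overlap among these. limma gave an adjusted p of 9.27e-05 for LOC_Os12g13445 and of 0.000236 for LOC_Os12g44280 at 45 ºC, and no fold is given because heated WT was listed at 0 in all 3 libraries of LOC_Os12g44280 and in all but library 3 of LOC_Os12g13445. The call of LOC_Os12g44280 was lost with a constant of 1 FPKM.

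A pair of genes with somewhat higher WT levels had a like profile. LOC_Os02g52730 was at 23.7, 27.5 and 28.4 FPKM in *ntl3-1* at 29 ºC, at 1.49, 0.577 and 2.45 FPKM in WT at 29 ºC, at 10.1, 9.69 and 17.9 FPKM in *ntl3-1* at 45 ºC and at 0.559, 0.545 and 1.05 FPKM in WT at 45 ºC. Its excess at 45 ºC was 3.95 on the log2 scale (SE 0.43, adjusted p = 0.000794). LOC_Os12g43380 was at 147, 291 and 175 FPKM in *ntl3-1* at 29 ºC, at 6.34, 1.51 and 3.31 FPKM in WT at 29 ºC, at 83.7, 45.3 and 9.68 FPKM in *ntl3-1* at 45 ºC and at 4.36, 2.98 and 5.19 FPKM in WT at 45 ºC. Each of its *ntl3-1* libraries was above each WT library, but those at 45 ºC differed widely among themselves, and its log2FC of 3.0004 at 45 ºC (SE 0.71, adjusted p = 0.0769) did not pass the test. In all, 16 members (10.8%, against 4.52% of all genes tested) had every *ntl3-1* library at 45 ºC above all 6 WT libraries, and 10 of these 16 were among the 17 called. These 16 were picked by heated *ntl3-1* standing above heated WT, so the number called is partly given by the pick. In 19 members (12.8%, against 29%) every heated *ntl3-1* library was above every unheated WT library, in 61 (41.2%, against 29.9%) every one was below, and in 68 the groups overlapped.

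**Figure D3:**
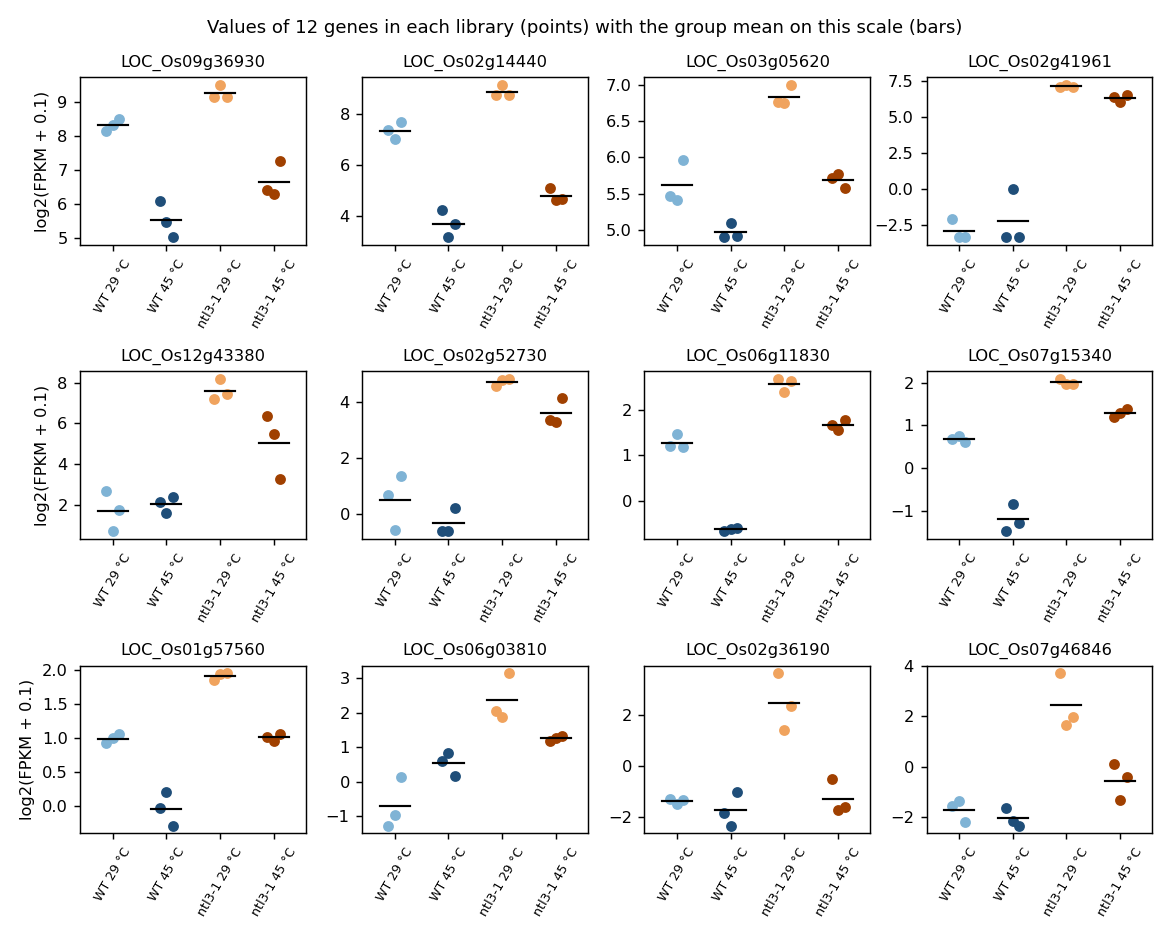
log2(FPKM + 0.1) of 12 members in each library (points, 3 per group) with the group mean on this scale (bars); vertical axes differ between panels. LOC_Os09g36930 and LOC_Os02g14440 fall with heat in both genotypes, LOC_Os02g41961 stays between 66.8 and 152 FPKM in *ntl3-1* and at 0.900 FPKM or less in WT, LOC_Os06g03810 rises with heat in WT, and LOC_Os02g36190 and LOC_Os07g46846 have replicate 1 above the other libraries of *ntl3-1* at 29 ºC.

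Product names were available for 10 members, from the study's lists of heat-responsive genes as annotated at MSU. Those lists were made from these libraries, so that all 10 were down-regulated by heat in WT follows in part from where the names came from. They are not a sample of the set, and no share of functions can be read from them. None of the 12 genes that the study took to qRT-PCR, and none of OsNTL3, BiP2 and BiP4, was a member. The paper reports all of these as up-regulated by heat in WT. The rule leaves out any gene that is highest in a heated group, so their absence is largely given by the choice. No member with a product name was a transcription factor, chaperone, calcium-related protein or jasmonate- or ethylene-related protein. Genes of these kinds that rise strongly with heat could not pass the rule, so this too is no result about the set.

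Among the products of the cell surface and wall, LOC_Os09g29690 encodes a beta-expansin precursor, of a protein family that loosens cell walls in grasses. It was at 3.499, 2.43 and 2.24 FPKM in *ntl3-1* at 29 ºC, at 0.613, 0.986 and 1.28 FPKM in WT at 29 ºC, at 0.768, 0.459 and 0.565 FPKM in *ntl3-1* at 45 ºC and at 0.312, 0.147 and 0.347 FPKM in WT at 45 ºC. LOC_Os06g32990 encodes a peroxidase precursor, of the secreted enzymes that use hydrogen peroxide. It was at 21.6, 21.9 and 24.2 FPKM in *ntl3-1* at 29 ºC, at 14.4, 12.5 and 15.2 FPKM in WT at 29 ºC, at 10.9, 8.98 and 8.699 FPKM in *ntl3-1* at 45 ºC and at 7.37, 5.93 and 7.38 FPKM in WT at 45 ºC. Both were down-regulated in WT, with a log2FC of -1.52 (SE 0.33, adjusted p = 0.00314) for the expansin (call lost with a constant of 1 FPKM) and -1.02 (SE 0.12, adjusted p = 5.98e-05) for the peroxidase. The peroxidase stood just past the fold threshold and fell short of it with that constant, and without WT library 1 or 3 at 29 ºC or WT library 2 at 45 ºC (-0.997 to -0.92).

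LOC_Os03g01320 and LOC_Os07g07920 belong to the family of protease inhibitors, seed storage proteins and lipid transfer proteins, which are small secreted proteins, and carry the names LTPL116 and LTPL100. LOC_Os03g01320 was at 30.5, 27.2 and 33.4 FPKM in *ntl3-1* at 29 ºC, at 12.4, 18.1 and 15.7 FPKM in WT at 29 ºC, at 11.9, 7.601 and 7.104 FPKM in *ntl3-1* at 45 ºC and at 5.32, 8.79 and 6.03 FPKM in WT at 45 ºC. LOC_Os07g07920 was at 11.9, 10.9 and 14.7 FPKM in *ntl3-1* at 29 ºC, at 7.89, 7.68 and 7.83 FPKM in WT at 29 ºC, at 1.38, 1.11 and 2.97 FPKM in *ntl3-1* at 45 ºC and at 2.69, 2.74 and 0.543 FPKM in WT at 45 ºC. Both fell with heat in WT, with a log2FC of -1.20 (adjusted p = 0.0015) and -2.20 (adjusted p = 0.00507), and neither differed between genotypes at 45 ºC past the thresholds. These genes and LOC_Os10g37760 were named after their values were seen.

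Proteolysis and transport were represented by 3 genes. LOC_Os10g39260, an aspartic proteinase of the nepenthesin type, was at 37.5, 25.8 and 30.8 FPKM in *ntl3-1* at 29 ºC, at 11.5, 9.71 and 11.7 FPKM in WT at 29 ºC, at 5.33, 2.82 and 2.94 FPKM in *ntl3-1* at 45 ºC and at 1.21, 2.51 and 2.28 FPKM in WT at 45 ºC. LOC_Os10g37760, a rhomboid homologue named OsRhmbd17 of a family of proteases that cut within membranes, was at 2.62, 3.73 and 7.49 FPKM in *ntl3-1* at 29 ºC, at 1.35, 1.47 and 1.903 FPKM in WT at 29 ºC, at 1.41, 1.56 and 1.71 FPKM in *ntl3-1* at 45 ºC and at 0.4801, 0.815 and 0.852 FPKM in WT at 45 ºC. LOC_Os02g02190, a transporter of the major facilitator family that moves small solutes across membranes, was at 13.04, 12.7 and 22.03 FPKM in *ntl3-1* at 29 ºC, at 7.85, 8.32 and 9.59 FPKM in WT at 29 ºC, at 1.38, 1.51 and 1.62 FPKM in *ntl3-1* at 45 ºC and at 0.831, 0.5697 and 1.93 FPKM in WT at 45 ºC. All 3 were down-regulated in WT, the transporter the most (log2FC -3.0018, SE 0.35, adjusted p = 4.96e-05), then the aspartic proteinase (-2.45, SE 0.29, adjusted p = 5.7e-05).

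LOC_Os01g57560 encodes the precursor of a serine/threonine-protein kinase receptor, a class of membrane proteins that pass signals into the cell. It was at 3.52, 3.75 and 3.78 FPKM in *ntl3-1* at 29 ºC, at 1.802, 1.896 and 1.98 FPKM in WT at 29 ºC, at 1.92, 1.85 and 1.98 FPKM in *ntl3-1* at 45 ºC and at 0.882, 1.05 and 0.721 FPKM in WT at 45 ºC. Heated *ntl3-1* lay at the level of unheated WT, and heated WT lay under both. Libraries of a group were close to each other except in heated WT, which ran from 0.721 to 1.05 FPKM. The log2FC was -1.03 (SE 0.16, adjusted p = 0.000305) for heat in WT and 1.05 (SE 0.16, adjusted p = 0.00683) for *ntl3-1* against WT at 45 ºC. Both were just past the fold threshold and fell short of it with quantile normalization or a constant of 1 FPKM, and without WT library 3 at 45 ºC (-0.90 and 0.92). The first also did without WT library 3 at 29 ºC (-0.9975), and the second was lost with only the 2 heated groups in the fit (adjusted p = 0.163).

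LOC_Os06g11830 and LOC_Os07g15340 both encode proteins with a hAT dimerisation domain, which is found in transposases of the hAT family. LOC_Os06g11830 was at 6.26, 5.15 and 6.07 FPKM in *ntl3-1* at 29 ºC, at 2.19, 2.66 and 2.15 FPKM in WT at 29 ºC, at 3.05, 2.83 and 3.33 FPKM in *ntl3-1* at 45 ºC and at 0.529, 0.556 and 0.5602 FPKM in WT at 45 ºC. LOC_Os07g15340 was at 4.14, 3.796 and 3.82 FPKM in *ntl3-1* at 29 ºC, at 1.49, 1.58 and 1.43 FPKM in WT at 29 ºC, at 2.199, 2.36 and 2.52 FPKM in *ntl3-1* at 45 ºC and at 0.258, 0.457 and 0.313 FPKM in WT at 45 ºC. In each gene the 4 groups did not overlap, in the order unheated *ntl3-1*, heated *ntl3-1*, unheated WT and heated WT. Both were lower in heated than in unheated WT, with a log2FC of -1.90 (SE 0.15, adjusted p = 2.38e-06) and -1.88 (SE 0.18, adjusted p = 1.36e-05), and at 45 ºC higher in *ntl3-1*, with a log2FC of 2.29 (SE 0.15, adjusted p = 1.26e-05) and 2.496 (SE 0.18, adjusted p = 3.6e-05). LOC_Os01g36064, without a product name, was at 6.36, 5.17 and 5.93 FPKM in *ntl3-1* at 29 ºC, at 2.25, 2.301 and 2.06 FPKM in WT at 29 ºC, at 2.27, 2.65 and 3.21 FPKM in *ntl3-1* at 45 ºC and at 0.4698, 0.783 and 0.339 FPKM in WT at 45 ºC. It too was lower in heated than in unheated WT (log2FC -1.93, SE 0.24, adjusted p = 8.07e-05). At 45 ºC it was higher in *ntl3-1* (log2FC 2.20, SE 0.24, adjusted p = 0.000785). Unlike in the hAT genes, heated *ntl3-1* overlapped unheated WT. These 3 loci were named after their values were seen, and if they are close copies, reads could have been divided between them, which was not tested.

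The 3 libraries of unheated *ntl3-1* agreed closely for most members, which the rule favours since it uses the lowest of the 3. The coefficient of variation between them had a median of 14.5% and ran from 1.23% to 98.7%. Replicate 2 was the lowest of the 3 in 78 genes, replicate 1 in 46 and replicate 3 in 24. In 6 genes replicate 1 was at least 2 times both others, in 2 genes replicate 3 was, and in 0 genes replicate 2 was. The same counts over all expressed genes were not worked out, so these are not shown to be a trait of the set. LOC_Os02g36190 was at 12.5, 2.59 and 4.98 FPKM in *ntl3-1* at 29 ºC, at 0.309, 0.254 and 0.299 FPKM in WT at 29 ºC, at 0.605, 0.207 and 0.227 FPKM in *ntl3-1* at 45 ºC and at 0.177, 0.0986 and 0.394 FPKM in WT at 45 ºC. LOC_Os07g46846 was at 13.01, 3.07 and 3.82 FPKM in *ntl3-1* at 29 ºC, at 0.241, 0.296 and 0.117 FPKM in WT at 29 ºC, at 0.972, 0.301 and 0.645 FPKM in *ntl3-1* at 45 ºC and at 0.2203, 0.123 and 0.0979 FPKM in WT at 45 ºC. LOC_Os06g37300 was at 12.5, 2.28 and 2.75 FPKM in *ntl3-1* at 29 ºC, at 0.159, 0.192 and 0.2504 FPKM in WT at 29 ºC, at 1.705, 0.0711 and 1.07 FPKM in *ntl3-1* at 45 ºC and at 0.219, 0.102 and 0.0405 FPKM in WT at 45 ºC. In these 3 genes all WT libraries were under 1 FPKM, and the excess of *ntl3-1* at 29 ºC by group mean rests largely on 1 library, although the lower 2 also passed the rule. The other 3 were LOC_Os04g10000, LOC_Os09g29710 and LOC_Os06g29730, with 11.3, 9.72 and 70.2 FPKM in replicate 1 against at most 5.54, 3.99 and 33.1 FPKM in the others. All but LOC_Os02g36190 and LOC_Os07g46846 were named after their values were seen.

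Members with the largest gap to the next library were mostly of low abundance. The ratio of the lowest unheated *ntl3-1* library to the highest other library ran from 1.3004 to 4.39 with a median of 1.51. The gap was largest, at 4.39, in LOC_Os12g28710, which was at 3.23, 3.12 and 5.304 FPKM in *ntl3-1* at 29 ºC, at 0.711, 0.208 and 0.374 FPKM in WT at 29 ºC, at 0.271, 0.317 and 0.297 FPKM in *ntl3-1* at 45 ºC and at 0.162, 0.101 and 0 FPKM in WT at 45 ºC. LOC_Os03g38350 was at 7.78, 6.997 and 8.37 FPKM in *ntl3-1* at 29 ºC, at 1.59, 1.38 and 1.54 FPKM in WT at 29 ºC, at 1.59, 1.68 and 1.66 FPKM in *ntl3-1* at 45 ºC and at 1.49, 0.965 and 0.254 FPKM in WT at 45 ºC. LOC_Os06g02019 was at 23.4, 26.4 and 24.9 FPKM in *ntl3-1* at 29 ºC, at 8.45, 5.83 and 8.17 FPKM in WT at 29 ºC, at 6.02, 5.03 and 7.72 FPKM in *ntl3-1* at 45 ºC and at 3.34, 1.596 and 2.52 FPKM in WT at 45 ºC. In LOC_Os03g38350 each heated *ntl3-1* library was above each heated WT library, but neither test gave a call (log2FC 1.05, SE 0.42, adjusted p = 0.3005 at 45 ºC; log2FC -0.93, SE 0.42, adjusted p = 0.0955 for heat in WT), whereas in LOC_Os06g02019 heated WT was under unheated WT (log2FC -1.59, SE 0.25, adjusted p = 0.000377) and *ntl3-1* was above WT at 45 ºC (log2FC 1.34, SE 0.25, adjusted p = 0.0249). The call at 45 ºC was lost with only the 2 heated groups in the fit (adjusted p = 0.288), and without WT library 3 or *ntl3-1* library 1 or 3 at 45 ºC (adjusted p from 0.0510 to 0.0852).

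LOC_Os10g39300 was at 15.04, 8.695 and 12.01 FPKM in *ntl3-1* at 29 ºC, at 3.07, 1.995 and 3.44 FPKM in WT at 29 ºC, at 2.72, 0.991 and 1.15 FPKM in *ntl3-1* at 45 ºC and at 0.0484, 0.495 and 1.02 FPKM in WT at 45 ºC. It neighbours the aspartic proteinase LOC_Os10g39260 and had a similar profile, with a log2FC in WT of -2.63 (SE 0.64, adjusted p = 0.00596). LOC_Os12g28590 was at 12.05, 12.7 and 23.996 FPKM in *ntl3-1* at 29 ºC, at 2.86, 4.18 and 4.31 FPKM in WT at 29 ºC, at 3.46, 3.75 and 4.51 FPKM in *ntl3-1* at 45 ºC and at 4.46, 3.83 and 4.87 FPKM in WT at 45 ºC. In LOC_Os12g28590 all 9 other libraries lay between 2.86 and 4.87 FPKM, so only unheated *ntl3-1* stood apart. LOC_Os06g15730 was at 2.72, 2.41 and 2.58 FPKM in *ntl3-1* at 29 ºC, at 0.371, 0.266 and 0.5603 FPKM in WT at 29 ºC, at 0.5297, 0.605 and 0.394 FPKM in *ntl3-1* at 45 ºC and at 0.0796, 0.192 and 0.194 FPKM in WT at 45 ºC, with a log2FC at 45 ºC of 1.28 (SE 0.28, adjusted p = 0.0587) that did not pass.

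At the edge of the rule, the genes just inside the ratio of 1.3 were LOC_Os02g43360 (1.3004), LOC_Os12g13445 (1.3013) and LOC_Os11g07980 (1.3046), and those just outside were LOC_Os03g29930 (1.2987), LOC_Os03g22230 (1.2968) and LOC_Os02g18410 (1.2962). LOC_Os02g43360 was at 30.9, 16.5 and 21.3 FPKM in *ntl3-1* at 29 ºC, at 10.3, 11.3 and 12.2 FPKM in WT at 29 ºC, at 12.7, 7.404 and 12.1 FPKM in *ntl3-1* at 45 ºC and at 8.44, 9.78 and 6.08 FPKM in WT at 45 ºC. Nothing but the threshold separates such genes. LOC_Os12g13445 is among them although it was listed at 0 in 5 of the 6 WT libraries, because its highest other library was a heated *ntl3-1* library.

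The members lay on all 12 chromosomes, as read from the locus names, since no coordinates were used here. Of the 16991 rice loci with at least 2 FPKM in every unheated *ntl3-1* library, 0.871% were members. The share was highest on chromosome 12, with 14 members or 1.53% of such loci, then on chromosome 7 with 18 members or 1.38%, and lowest on chromosome 5 with 8 members or 0.568%. OsNTL3 is on chromosome 1, which held 19 members or 0.783%.

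**Figure D4:**
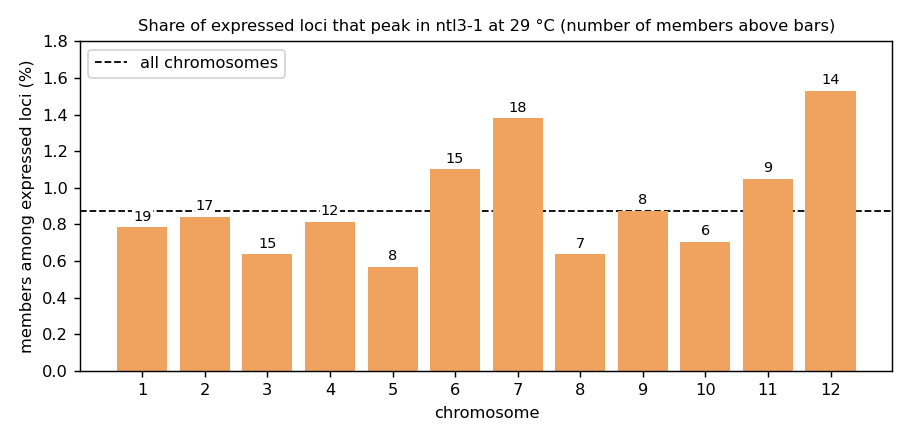
Members as a share (%) of the expressed loci on each of the 12 chromosomes, with the number of members above each bar and a dashed line at the share over all chromosomes (0.871%). The bars of chromosomes 12 and 7 are the tallest, at 1.53% and 1.38%.

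Some members were close neighbours by locus number. In 8 runs, 17 members or 11.5% of the set had another member within 50 locus numbers on the same chromosome. The share for other sets of expressed loci was not worked out, so whether the members cluster was not tested. The longest run held LOC_Os02g02120, LOC_Os02g02170 and the transporter LOC_Os02g02190. LOC_Os02g02120 was at 8.73, 7.51 and 8.61 FPKM in *ntl3-1* at 29 ºC, at 4.87, 4.92 and 4.65 FPKM in WT at 29 ºC, at 1.28, 1.65 and 0.866 FPKM in *ntl3-1* at 45 ºC and at 0.528, 0.732 and 1.07 FPKM in WT at 45 ºC. LOC_Os02g02170 was at 10.5, 9.71 and 16.2 FPKM in *ntl3-1* at 29 ºC, at 5.49, 6.73 and 6.62 FPKM in WT at 29 ºC, at 1.26, 1.05 and 0.827 FPKM in *ntl3-1* at 45 ºC and at 0.625, 0.838 and 1.27 FPKM in WT at 45 ºC. All 3 genes of this run were down-regulated by heat in WT, with a log2FC from -3.0018 to -2.53, and none was called at 45 ºC between the genotypes. In 3 pairs the members were next to each other in the list of all loci, among them LOC_Os03g01300 with LOC_Os03g01320 and LOC_Os09g36930 with LOC_Os09g36940. LOC_Os09g36940 was at 2.105, 2.36 and 2.36 FPKM in *ntl3-1* at 29 ºC, at 1.42, 1.13 and 1.32 FPKM in WT at 29 ºC, at 0.577, 0.683 and 1.38 FPKM in *ntl3-1* at 45 ºC and at 0.582, 0.546 and 1.42 FPKM in WT at 45 ºC, so that the most abundant member had a neighbour at a level under 3 FPKM. These neighbours were named after their values were seen, and whether neighbours share reads was not tested.

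Whole seedlings hold leaf and root. As measures of both, 8 loci were taken as leaf markers and 4 as root markers, from general knowledge of rice and without annotation in the sources used here. The leaf loci summed to 27614 to 34962 FPKM in WT at 29 ºC, 42878 to 51877 FPKM in *ntl3-1* at 29 ºC, 24401 to 38579 FPKM in WT at 45 ºC and 36394 to 46926 FPKM in *ntl3-1* at 45 ºC. At 29 ºC the mean of each of the 8 was higher in *ntl3-1*, by 0.35 to 0.90 on the log2 scale. At 45 ºC the log2FC was above 0 in each of the 8 too, from 0.11 to 0.73, beside the median of 0.52 in the set, and 0 of the 8 passed the thresholds. The ranges of the leaf sum did not overlap between the genotypes at 29 ºC and overlapped at 45 ºC, and those of heated and unheated WT overlapped.

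Of the 4 root loci, LOC_Os02g37190 and LOC_Os02g02170 are members. The other 2, LOC_Os02g51110 and LOC_Os03g01700, summed to 406 to 449 FPKM in WT at 29 ºC, 351 to 459 FPKM in *ntl3-1* at 29 ºC, 81.4 to 190 FPKM in WT at 45 ºC and 84.4 to 115 FPKM in *ntl3-1* at 45 ºC. Both fell with heat in WT, with a log2FC of -1.995 (adjusted p = 7.25e-05) and -1.31 (adjusted p = 0.00259), and their sum overlapped between the genotypes at each temperature. The sum of all 4 root loci did not overlap at 29 ºC, at 517 to 544 FPKM in WT and 580 to 679 FPKM in *ntl3-1*. The members among the 4 are higher in unheated *ntl3-1* by the rule. No marker locus was at 0 in a library. The part of the makeup of the seedlings in the levels of the set was not tested.

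**Figure D5:**
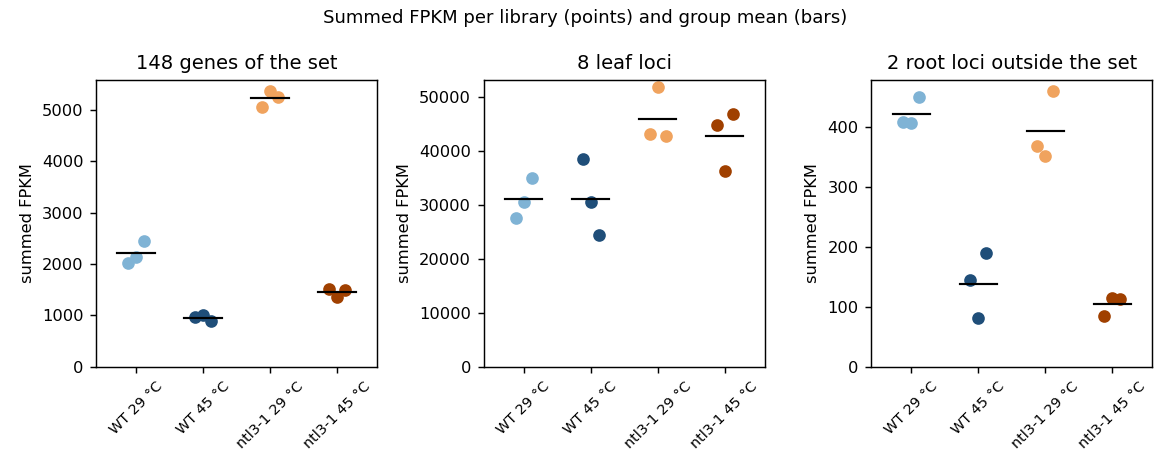
Summed FPKM per library (points) and group mean (bars) for the 148 genes of the set, for 8 leaf loci and for the 2 root loci outside the set. The set is highest in *ntl3-1* at 29 ºC by the rule (5046 to 5363), the leaf sum at 29 ºC is higher in *ntl3-1*, and the root sum overlaps between the genotypes and is lower at 45 ºC.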

How the data were processed

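RNA of whole seedlings was sequenced from TruSeq libraries made with Trizol extracts. Per the paper, reads with a base score under 20 were removed with SeqPrep and Sickle, the rest were mapped by TopHat to the MSU rice genome, and FPKM came from RSEM. FPKM values were used as deposited by the authors, in 1 table of 12 columns. Its header is of the Cuffnorm form, and the submitters' processing notes name Bowtie 0.12.2 and the mouse build mm8, which does not go with rice loci. How reads of near-identical copies were divided and whether strand was used are not given in the sources used here.

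Genes above 0 FPKM in at least 3 libraries were tested with limma 3.58.1 (R 4.3.3) on log2(FPKM + 0.1), with 1 mean per group over all 12 libraries, 8 residual degrees of freedom and variances moderated along the mean. P-values are two-sided, with Benjamini-Hochberg adjustment over all 31681 genes in each comparison. A fold change is on this scale and understates the change of low genes. Calls need an adjusted p up to 0.05 and a log2FC of 1 or more in size. The procedure was tested on simulated data. That test read only the heat response of WT, with changes planted in genes away from the lowest levels. It held no selection of members, so it says nothing of the effect of the rule. Tables and plots were made with Python 3.11.15, pandas 2.3.3 and matplotlib 3.10.9.

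Members, gene lists and tests were chosen with earlier results of these data known. Named are the 15 members with the highest mean in *ntl3-1* at 29 ºC, the 10 with the largest ratio to the next library, the 3 on either side of the ratio of 1.3, the 5 most extreme calls in each direction of both tests, and up to 4 per product group. Others are marked where they stand. The keyword for proteinases was added to the product groups later. Product names came from the study's lists, of which 3185 rows were held here. The members matched 0 entries of the RefSeq gene table, so no coordinates, promoters or sequences are given and the planned motif search was not run. Other constants, filters, scalings, thresholds, fits and left-out libraries were tried.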

Additional observations from a re-analysis of the deposited data

Results flagged for a closer look

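LOC_Os06g03810 responded to heat in opposite directions in the genotypes. Its heated WT libraries (1.44, 1.67 and 1.04 FPKM) were all above the unheated ones (0.316, 0.414 and 0.995 FPKM), and its heated *ntl3-1* libraries (2.15, 2.31 and 2.42 FPKM) were all under the unheated ones (4.06, 3.59 and 8.75 FPKM). The log2FC for heat in *ntl3-1* minus that in WT was -2.35. The call for the rise in WT was lost in 6 of 20 alternative fits, with adjusted p up to 0.0949 in limma. The fall in *ntl3-1* is a condition of the rule, so the difference was not tested. Groups of 3 libraries are too small for a check of single outlying libraries.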

How the results depend on the processing

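The number of genes that pass the rule was 440, 78 and 22 with a ratio of 1.1, 1.5 and 2, and 76 with a floor of 10 FPKM. It was between 149 and 253 when 1 library was left out, with 241 and 253 without *ntl3-1* library 1 or 2 at 29 ºC, since fewer libraries set fewer conditions. After median-of-ratios rescaling 139 genes passed, all of them members, and after quantile normalization 177 passed, of which 134 were members. Among the 148 genes, the 70 down-regulated in WT became 49 to 94 under the alternatives and 62 to 72 without 1 library. The 1 gene up-regulated in WT became 0 with adjusted p held to 0.01, with log2(FPKM + 1) and with only the 2 groups compared, 2 without the fold threshold, and 0 to 1 without 1 library. The 17 genes higher in *ntl3-1* at 45 ºC became 11 with adjusted p held to 0.01, 11 with log2(FPKM + 1) and 6 with only the 2 groups compared, and 15 to 22 without 1 library, and 0 were lower under every alternative run. The causes were not tested. With the replicate number as a block, 69 genes were lower and 1 was higher in WT and 16 were higher in *ntl3-1* at 45 ºC. Samples with the same number did not deviate together (r from -0.09 to 0.09 over 18 pairs), so the numbers were not taken to pair the libraries. Over the 30 called results of named genes, 600 further fits left the call and direction as they were in 558, ended the call in 42 and reversed 0. Depth limits what can be said of genes under 1 FPKM in WT, where 1 read at 45 ºC is worth more FPKM than at 29 ºC.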
